A study of Mus musculus with 3 samples.

Results

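The Hox genes of the mouse Hoxa, Hoxb, Hoxc and Hoxd clusters were examined in sorted cells of the embryonic yolk sac. Members were the non-control array probes whose gene name was Hoxa, Hoxb, Hoxc or Hoxd followed by digits only. This rule found 39 genes of the 36163 gene names on the array, carried by 43 of its 55681 probes. A pair of probes was carried by 4 genes, Hoxa9, Hoxa13 and Hoxb3 among them, and the others had 1. Yolk sac cells had been sorted by flow cytometry for both VE-cadherin, the adhesion protein of endothelial junctions, and CD45, a surface protein of blood cells. One group held 1 control sample, at embryonic stage E10.5. The other group held 2 samples in which an Etv2 transgene was turned on by Cre recombinase under the Tie-2 promoter, and their age was not stated in the labels. All animals were of a mixed strain background that included B6/CBA. Etv2 is an ETS-family transcription factor required to form endothelial and blood progenitors, and Tie-2 (gene Tek) is a receptor of endothelium that some blood cells also carry. Transgene activity is therefore limited to cells, and the descendants of cells, in which Tie-2 drove Cre. Total RNA was labelled with Cy3 and hybridised to 1 single-colour array per sample, all on 1 slide. Whether the Tie-2-Etv2 pair represents different litters, pools or one source is not stated in the labels, so p-values reflect only how far those samples varied, and that variation may be technical.

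Hox proteins are homeodomain transcription factors that give cells a position along the head-to-tail axis of the embryo. Genes of low paralog number lie at one end of each cluster and are active early and towards the head, and genes of high paralog number lie at the other end and are active later and towards the tail. They bind DNA with TALE cofactors of the Pbx and Meis families, are kept active by MLL complexes and are silenced by Polycomb complexes. In blood formation, Hoxa7, Hoxa9 and Hoxb4 are known for their roles in stem and progenitor cells and, for the Hoxa genes, in leukaemia.

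The homeobox is the stretch that encodes the DNA-binding domain. Codons of its recognition helix were searched for, on either strand of the probe, as the letters AACNG, then 2 bases of any kind, then GNATGAA. They were found in 14 of 55681 probes (0.0251%), among them 3 of the 43 Hox probes. Those of Hoxc11 and Hoxc12 are shown because they lie in the most conserved stretch of the family. They are 60 bases long, written 5′ to 3′ as the files give them, with the matched letters in capitals and positions on build mm9.

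Hoxc11, chr15:102787022-102787081, plus strand: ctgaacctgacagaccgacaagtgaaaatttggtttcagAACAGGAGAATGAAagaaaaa
Hoxc12, chr15:102768889-102768948, plus strand: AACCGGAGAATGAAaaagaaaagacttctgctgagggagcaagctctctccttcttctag

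Across all pairs of Hox probes the longest run of bases shared between different genes was 11. It occurred between Hoxc11 and Hoxc12, within this stretch, and between Hoxb4 and Hoxc11.

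A small part of the Hox family was measurable in these cells. A probe is called here when the scanner software marked it as well above background. On the control array 6 of 39 Hox genes were called, against 52.9% of all gene names. On Tie-2-Etv2 replicate 1 the count was 8, against 50.6% of all names, and on replicate 2 it was 7, against 55.3%. On all 3 arrays the called genes were Hoxa7, Hoxa9, Hoxb2, Hoxb4, Hoxb5 and Hoxc12, which are 15.4% of the family, against 47.8% of all gene names. A further 3 genes were called on a single array, Hoxb3 and Hoxc10 on Tie-2-Etv2 replicate 1 and Hoxb6 on replicate 2. The remaining 30 genes were called on none, as were 41.7% of all gene names.

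The calls were spread unevenly over the clusters. In the Hoxb cluster 3 of 10 genes were called on all 3 arrays and 2 more on 1 array, and these 5 genes, Hoxb2 to Hoxb6, are neighbours. In the Hoxa cluster 2 of 11 genes were called on all arrays and the other 9 on none. In the Hoxc cluster 1 of 9 was called on all arrays and 1 on a single array. In the Hoxd cluster 0 of 9 genes were called on any array. These counts are small, and the differences between clusters were not tested.

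By paralog position, each block of the clusters held called genes. Among paralogs 1 to 4, which are the head-ward genes, 2 of 12 genes were called on all arrays. Among the middle paralogs 5 to 8 the count was 2 of 11, and among the tail-ward paralogs 9 to 13 it was 2 of 16. Each of these blocks held 1 more gene called on a single array. No gene of paralog groups 1, 8, 11 or 13 was called on any array. The paralogs of the called genes were mostly not called themselves: Hoxa9 was called while Hoxb9, Hoxc9 and Hoxd9 were not, and Hoxb4 was called while Hoxa4, Hoxc4 and Hoxd4 were not.

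**Figure D1:**
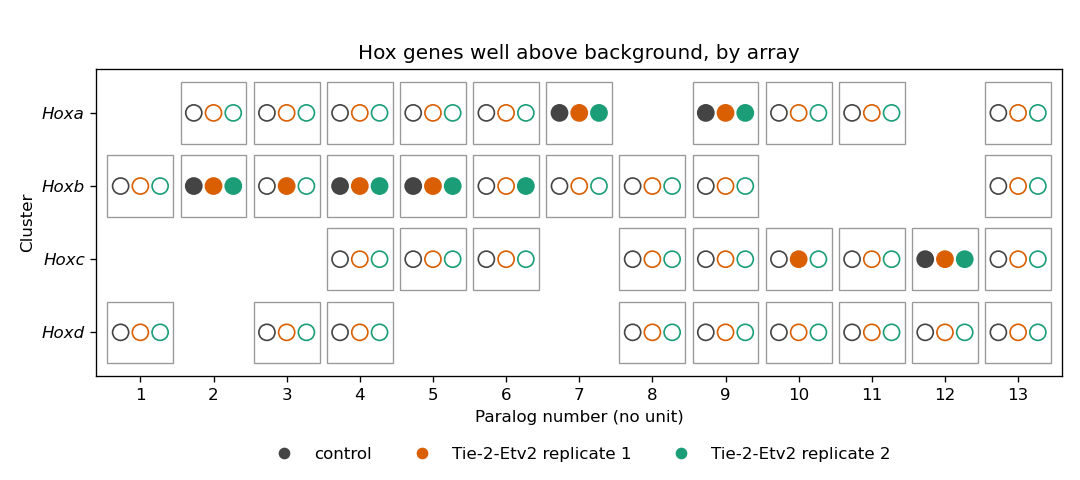
Each box is 1 Hox gene, placed by cluster (rows) and paralog number (columns), and its 3 circles stand for the control array and Tie-2-Etv2 replicates 1 and 2. Filled circles are arrays on which the gene was well above background: 6 genes have all circles filled, 3 have 1 filled, and all 9 Hoxd genes have open circles.

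The count depended on how strict the call was. With the software's looser mark, a signal positive and significant against background, 21 Hox genes were called in control, 17 in Tie-2-Etv2 replicate 1 and 15 in replicate 2. The shares of all gene names under this mark were 71.6%, 71.4% and 75.8%. Under it 12 Hox genes were called on all 3 arrays, against 63.3% of all gene names, and 16 on none. On all 3 arrays it called 6 of 10 Hoxb genes, 4 of 11 Hoxa genes, 2 of 9 Hoxc genes and 0 of 9 Hoxd genes. On at least 1 array it called 8, 8, 3 and 4 genes of these clusters, so that Hoxd then had more than Hoxc.

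Signals are given as processed intensity, the background-subtracted brightness of the spot, with the scanner software's own error. Brightness of different probes cannot be compared, so each gene is compared only with itself. For the comparison of arrays each value was taken as log2 intensity minus the array's 75th percentile, because the arrays differed in overall brightness: that percentile was 2073 in control, 1199 in Tie-2-Etv2 replicate 1 and 2092 in replicate 2. The lowest intensity of any called probe was 13.8, 10.54 and 11.2 on these arrays. Testing was limited to genes called in control or in both transgenic samples, 19596 in all, among them the 6 Hox genes called on all 3 arrays.

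**Figure D2:**
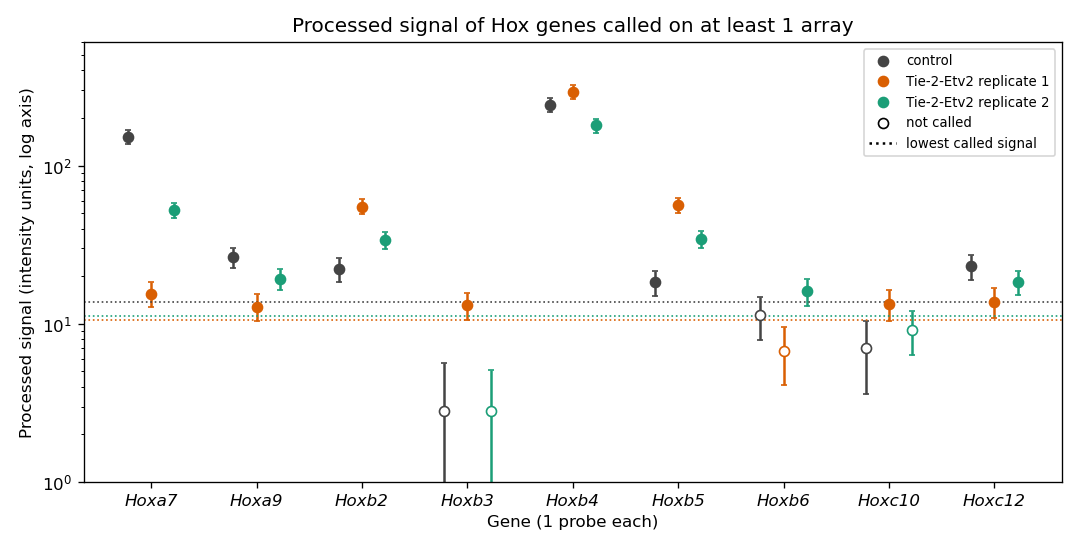
Processed signal (intensity units, log axis) of the 9 Hox genes called on at least 1 array, with 1 probe per gene, before scaling between arrays. Points are single arrays, bars are the scanner software's error (2 of them run off the bottom of the axis), open points were not called, and dotted lines mark each array's lowest called signal; Hoxa7 is brightest on the control array, and Hoxb2 and Hoxb5 are brightest on Tie-2-Etv2 replicate 1.

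The question of the comparison is how expression in these sorted cells differs when Etv2 is turned on in the Tie-2 lineage. No Hox gene passed the test, and neither did any other gene: with limma and Benjamini-Hochberg adjustment, 0 of 19596 genes (0%) had an adjusted p under 0.05. At an unadjusted p under 0.05 there were 2112 genes (10.8%), with 1 Hox gene among them, Hoxa7. One control array stood against 2 arrays, so an exact permutation test of any single gene could not give a p below 0.333. Of the tested Hox genes, 1 (Hoxa7) lay at least 2-fold lower than control on both Tie-2-Etv2 arrays, against 6.64% of all tested genes, and 0 lay at least 2-fold higher on both, against 3.91%. Without regard to size, 2 (Hoxb2 and Hoxb5) lay above control on both arrays, against 42.5% of all tested genes, and 2 (Hoxa7 and Hoxa9) lay below it on both, against 30.9%. The median difference of the 6 genes was 0.08 log2, with 0.56 on replicate 1 and -0.39 on replicate 2. Over all tested genes it was 0.07, with 0.08 and 0.05 on the same arrays.

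Hoxa7 encodes a middle-group homeodomain protein with a known part in the growth of blood progenitors. Its probe lies on chromosome 6 at 52165626 to 52165685, minus strand. It read 152 ± 15.5 in control (intensity ± scanner error), 15.5 ± 2.78 in Tie-2-Etv2 replicate 1 and 52.2 ± 5.75 in replicate 2. The control array was the highest and the groups did not overlap. The reading on replicate 1 was near the detection limit, at 1.47 times the lowest called intensity of that array. After scaling, Hoxa7 was 2.50 log2 below control on replicate 1 (5.67-fold) and 1.55 log2 below on replicate 2 (2.94-fold), with scanner errors of 0.30 and 0.22. The scaled level was -3.77 on the control array and -5.80 ± 0.67 (SD, n = 2) in the Tie-2-Etv2 arrays. In limma the mean difference was -2.03 ± 0.52 (SE), 4.08-fold lower, with an unadjusted p of 0.0186 and an adjusted p of 0.342. With another background correction (normexp) the mean difference was -0.88, no Hox gene reached 2-fold lower on both arrays, and the adjusted p was at most 0.756 over all settings tried.

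Hoxa9, the posterior-group gene best known for its role in haematopoietic stem cells and in leukaemia with MLL fusions, was near the detection limit. Its tested probe (chromosome 6, 52174165 to 52174224, minus strand) read 26.3 ± 3.85 in control, 12.9 ± 2.50 in Tie-2-Etv2 replicate 1 and 19.2 ± 2.98 in replicate 2. The scaled differences were -0.24 and -0.46, of the size of their scanner errors (0.35 and 0.31). In limma the mean was -0.35 ± 0.33 (SE) with an adjusted p of 0.872, and with normexp the sign was the other way (0.14). The second Hoxa9 probe (52175595 to 52175654) was called on replicate 1 alone. It read 12.3, 13.02 and 11.7 on the 3 arrays, giving differences of 0.87 and -0.09, so the probes of Hoxa9 differed in sign on replicate 1. Both scaled differences of the second probe rest on a control value that was not called.

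The tested Hoxb genes, Hoxb2, Hoxb4 and Hoxb5, were higher on one Tie-2-Etv2 array than on the other. Hoxb2, an anterior gene of hindbrain patterning, has its probe on chromosome 11 at 96215122 to 96215181, plus strand. It read 22.1 ± 3.78 in control, 55.1 ± 5.98 in Tie-2-Etv2 replicate 1 and 33.9 ± 4.18 in replicate 2. Control was the lowest array and the groups did not overlap. The control reading was near the detection limit, at 1.60 times the lowest called intensity of that array. After scaling Hoxb2 was 2.11 log2 above control on replicate 1 (4.30-fold) but 0.60 above on replicate 2 (1.52-fold), with scanner errors of 0.29 and 0.30. The limma mean was 1.35 ± 0.73 (SE), with an adjusted p of 0.666, and with normexp it was 0.71.

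Hoxb5, a middle-group gene used as a marker of long-term haematopoietic stem cells in adult bone marrow, showed a similar pattern. Its probe (chromosome 11, 96167130 to 96167189, plus strand) read 18.4 ± 3.34 in control, 56.4 ± 6.03 in Tie-2-Etv2 replicate 1 and 34.4 ± 4.12 in replicate 2. Both Tie-2-Etv2 arrays lay above the control array. The control reading was near the detection limit, at 1.33 times the lowest called intensity of that array. The scaled difference was 2.41 log2 on replicate 1 (5.31-fold) and 0.89 on replicate 2 (1.86-fold), with scanner errors of 0.30 and 0.31. The limma mean was 1.65 ± 0.74 (SE), 3.14-fold higher, with an adjusted p of 0.578, and with normexp it was 0.87.

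Hoxb4, whose forced expression expands blood stem and progenitor cells, was read at 16 to 27.8 times the lowest called intensity of each array. Its probe (chromosome 11, 96182885 to 96182944, plus strand) read 241 ± 24.3 in control, 293 ± 29.4 in Tie-2-Etv2 replicate 1 and 180 ± 18.1 in replicate 2. Here the control array lay between the Tie-2-Etv2 arrays, so the groups overlapped. The scaled difference was 1.07 log2 on replicate 1 (2.10-fold) and -0.44 on replicate 2, with a scanner error of 0.21 for each. The limma mean was 0.32 ± 0.73 (SE), with an adjusted p of 0.954.

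These 3 Hoxb genes shared the same gap between the Tie-2-Etv2 arrays. Replicate 1 lay above replicate 2 by 1.50 log2 for Hoxb2, 1.51 for Hoxb4 and 1.52 for Hoxb5, with scanner errors of 0.24, 0.21 and 0.23. At least 2-fold higher on replicate 1 than on replicate 2 were 5.09% of all tested genes, and at least 2-fold lower were 5.94%. On replicate 1 alone all 3 were at least 2-fold above control, as were 9.05% of all tested genes. Hoxa7, Hoxa9 and Hoxc12 did not share this gap: their differences between replicates 1 and 2 were -0.95, 0.22 and 0.39. Each gap compares 1 array with 1 array and has no replicate check.

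Hoxc12, a posterior gene known from limb, tail and hair follicle, was called on every array by its homeobox probe shown above. It read 23.1 ± 4.06 in control, 13.8 ± 2.98 in Tie-2-Etv2 replicate 1 and 18.3 ± 3.23 in replicate 2. These readings were near the detection limit, at 1.67, 1.31 and 1.64 times the lowest called intensity of each array. Scaled, it differed from control by 0.05 and -0.34, less than its scanner errors of 0.40 and 0.36. The limma mean was -0.15 ± 0.36 (SE), with an adjusted p of 0.957, and the sign was the other way with normexp (0.22). The Hoxc11 probe that carries the same letters was called on no array.

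**Figure D3:**
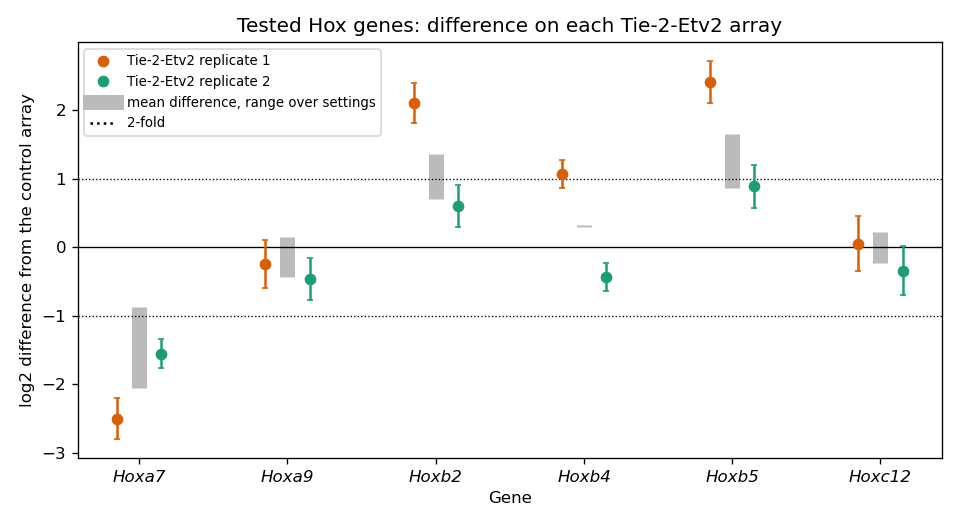
Difference from the control array (log2, vertical axis) for the 6 tested Hox genes, with 1 point per Tie-2-Etv2 array and bars for the scanner error of the difference. Grey bars span the mean difference over the processing settings tried and dotted lines mark 2-fold; Hoxa7 lies below the lower line on both arrays, while Hoxb2, Hoxb4 and Hoxb5 lie above the upper line on replicate 1 and below it on replicate 2.

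Among the tested genes the medians by cluster were -1.19 for the 2 Hoxa genes, 1.35 for the 3 Hoxb genes and -0.15 for the 1 Hoxc gene. By position they were 0.84 for the 2 genes of paralogs 1 to 4, -0.19 for the 2 of paralogs 5 to 8 and -0.25 for the 2 of paralogs 9 to 13. Within the middle block Hoxa7 and Hoxb5 lay on opposite sides of control on both arrays. The mean differences of both Hoxa genes were negative and those of all 3 Hoxb genes positive, although Hoxa9 took the other sign with normexp and Hoxb4 on replicate 2. These classes hold 1 to 3 genes each, and they were not tested against each other.

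Of the 3 genes called on a single array, none entered the test. Hoxb3, an anterior gene next to Hoxb2 and Hoxb4, read 2.81 in control, 13.1 in Tie-2-Etv2 replicate 1 and 2.81 in replicate 2 with the probe at 96209002 to 96209061. Its other probe read 3.71, 10.72 and 2.81 and was called on no array, although 10.72 lies just above the lowest called intensity of that array (10.54). The single Hoxb3 call thus fell on replicate 1, the array on which Hoxb2, Hoxb4 and Hoxb5 were also highest. Hoxb6, a middle-group gene next to Hoxb5, was instead called on replicate 2 alone and read 11.4, 6.78 and 16.1. Hoxc10, a posterior gene of the lumbar region and hind limb, was called on replicate 1 alone, like Hoxb3, and read 6.99, 13.4 and 9.18. For these genes at least 1 side of each difference was below the call, so no fold is given.

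The 30 genes with no call included Hoxa2, Hoxa3, Hoxa4, Hoxa5, Hoxa6, Hoxa10, Hoxa11 and Hoxa13; Hoxb1, Hoxb7, Hoxb8, Hoxb9 and Hoxb13; Hoxc4, Hoxc5, Hoxc6, Hoxc8, Hoxc9, Hoxc11 and Hoxc13; and all 9 Hoxd genes. With the uncalled Hoxb3 probe they were read by 33 probes, whose intensities ran from 2.15 to 14.4. Their medians were 3.31 in control, 2.60 in Tie-2-Etv2 replicate 1 and 2.61 in replicate 2. These readings are not upper limits of expression, because a surrogate stands in for very dim spots. The limit taken here is the array's lowest called intensity (13.8, 10.54 and 11.2), or the probe's own reading where higher. Values that were not called are not ranked here and do not show that a gene was silent.

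Some of the uncalled genes passed the looser mark. Hoxa6, the neighbour of Hoxa7, read 14.4 in control, 6.47 in Tie-2-Etv2 replicate 1 and 10.1 in replicate 2, and passed the looser mark on all 3 arrays. Hoxc6 read 9.68 on the control array and 2.66 and 2.27 on the Tie-2-Etv2 arrays. It would count as at least 2-fold lower on both arrays (-1.07 and -2.11) if dim probes were not left out. Hoxa4, Hoxb7 and Hoxb8 read 7.01, 7.37 and 6.51 on the control array. Within the Hoxd cluster, where genes act mainly in limb, trunk and genital development, control intensities ran from 2.87 to 4.03, and the highest value on any array was 9.69, for Hoxd4 on replicate 1.

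Hoxa11 and Hoxb1 were each printed in 10 spots. The scanner software sets a surrogate value for very dim spots, so the range of these spots may understate the true scatter. After outlier spots were left out, 10, 8 and 9 spots of Hoxa11 were used on the control array and Tie-2-Etv2 replicates 1 and 2. The Hoxa11 spots ran from 2.96 to 5.97 on the control array, from 2.37 to 2.65 on replicate 1 and from 2.43 to 2.72 on replicate 2. For Hoxb1, 8, 8 and 10 spots were used, and they ran from 2.90 to 3.29, from 2.19 to 2.74 and from 2.32 to 2.85. Of these spots 0 were called for either gene on any array.

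Probes for other transcripts also lie inside the clusters. Between the outermost Hox probes, on mm9, lie 103648 bases in Hoxa, 170657 in Hoxb, 108215 in Hoxc and 93812 in Hoxd. Within these spans, 40 probes carried names other than Hox genes, of which 10 were called on all 3 arrays, against 40.9% of all probes. By span the called probes were 0 of 6 in Hoxa, 7 of 22 in Hoxb, 2 of 6 in Hoxc and 1 of 6 in Hoxd. Several of the called Hoxb probes carry the same name. None of the 12 probes inside the spans that were tested lay at least 2-fold from control on both Tie-2-Etv2 arrays in 1 direction. HOTAIR, a noncoding RNA antisense to the Hoxc cluster, was called with 1 of 5 probes, which read 24.1, 23.0 and 40.3. Its scaled differences were 0.72 and 0.73, with a limma adjusted p of 0.571. Hoxa11as, the antisense partner of Hoxa11, was called on the control array alone, where it read 20.4. Its uncalled readings on Tie-2-Etv2 replicates 1 and 2 were 11.6 and 11.9, with scaled differences of -0.02 and -0.79.

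For the called genes the promoter, taken as the 250 bases before the start of the gene, was held by the RefSeq table (GRCm38.p6) for Hoxa7, Hoxa9 and Hoxb4, and for 22 of the 39 Hox genes in all. Hoxa7 and Hoxb4 are shown because Hoxa7 was at least 2-fold lower on both Tie-2-Etv2 arrays and Hoxb4 was not, while the transgene encodes an ETS factor. The capitals mark GGAA, the core that ETS factors contact, or TTCC, the same letters on the other strand. Sequences run 5′ to 3′ on the strand of the gene.

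Hoxa7, chr6:52218574-52218823, minus strand: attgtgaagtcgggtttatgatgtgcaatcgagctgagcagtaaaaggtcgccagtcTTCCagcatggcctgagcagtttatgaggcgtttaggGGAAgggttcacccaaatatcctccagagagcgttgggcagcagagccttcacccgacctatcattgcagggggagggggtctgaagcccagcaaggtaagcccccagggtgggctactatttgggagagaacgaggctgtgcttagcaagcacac
Hoxb4, chr11:96318017-96318266, plus strand: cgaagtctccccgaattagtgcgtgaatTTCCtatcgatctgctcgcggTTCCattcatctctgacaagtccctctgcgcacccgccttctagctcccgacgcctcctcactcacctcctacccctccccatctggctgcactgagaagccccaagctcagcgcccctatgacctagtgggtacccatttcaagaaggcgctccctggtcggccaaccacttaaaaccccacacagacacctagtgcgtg

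The core GGAA occurs 2 times in each of these windows and 9 times in that of Hoxa9, on either strand. It is common, with a match in 93.4% of 32851 promoters of this length and in 22 of the 24 Hox promoters, some genes having more than 1. The longer ETS letters CCGGAA, which contain the core, occur in 12% of all promoters and in 1 of the 24. The Pbx-Hox letters TGATNNAT occur in 7.68% of all and in 4 of the 24, and the Cdx letters TTTATNG in 9.81% and in 2 of the 24. None of the last 3 occurs, on either strand, in the windows of Hoxa7, Hoxa9 or Hoxb4. These matches describe the letters in the windows and are not evidence of binding.

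Hox proteins act with cofactors, and the TALE homeodomain list had a member on each side of control. Of 10 genes 8 were tested, 1 lay at least 2-fold higher on both arrays, 1 lay at least 2-fold lower and 0 passed the test, with a median of 0.27. For comparison with this and the later lists, 3.91% of all tested genes lay at least 2-fold higher on both arrays and 6.64% lower. Of all gene names 41.7% were called on no array. Meis1, the cofactor of Hoxa9 in leukaemia and blood stem cells, read 3054 in control, 5503 in Tie-2-Etv2 replicate 1 and 6858 in replicate 2. Both Tie-2-Etv2 arrays lay above control, by 1.64 and 1.15 log2, with a limma adjusted p of 0.358. Tgif1, a repressor of the same family, lay on the other side of control, at -1.39 and -1.37 log2 (adjusted p = 0.306 in limma).

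The list of upstream regulators holds genes that switch Hox clusters on, and also the Cyp26 enzymes, which break down the activating signal retinoic acid. Of its 17 genes 11 were tested and 6 were called on no array, among them Cdx1, Cdx2 and Cdx4, which activate middle and posterior Hox genes in the embryo and in blood formation. At least 2-fold higher on both arrays was 1 gene, at least 2-fold lower were 3, and 0 passed the test, with a median of -0.50. The higher one was Cyp26a1, which read 3.93 in control, where it was not called, and 49.5 and 14.7 in the Tie-2-Etv2 pair. Its difference is a bound of at least 2.56-fold for the mean, and by array it is at least 6.20-fold (replicate 1) or 1.06-fold (replicate 2), so that 2-fold on both arrays rests on the uncalled control reading. Cyp26b1, of the same enzyme family, lay at -1.91 and -2.50 log2. The hindbrain regulator Egr2, also known from macrophages, lay below control as well (-2.14 and -2.05). In limma the adjusted p was 0.259 for Cyp26b1 and 0.235 for Egr2.

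The chromatin regulators of Hox genes had small median differences, beside a median of 0.07 over all tested genes. All 18 genes of the MLL and active-chromatin list were called on every array, against 47.8% of all gene names. Of these 0 lay 2-fold from control on both arrays, with a median of 0.12. Over all tested genes 3.91% lay at least 2-fold higher on both and 6.64% lower, and the list counts were not tested against these shares. The members with the largest smaller difference were Mllt10, a partner of the histone methyltransferase Dot1l (0.44 and 0.35), and Wdr5, a core subunit of MLL complexes (0.29 and 0.23). Of 30 Polycomb genes 29 were tested, 0 lay at least 2-fold higher on both arrays, 1 lay at least 2-fold lower and the median was 0.16. The lower one was Cbx8, a reader subunit, which read 34.8, 6.13 and 15.04 and was uncalled on replicate 1 (adjusted p = 0.347 in limma). It lay 1.23 log2 below control on replicate 2, and on replicate 1 the lowest called signal bounds it at no more than -0.93, so that 2-fold on both arrays rests on the uncalled reading. None of either list passed the test.

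The genes that flank the clusters gave 1 large difference. Skap1, an adaptor protein of T cells that lies beside the Hoxb cluster, read 2.78 in control, 211 in Tie-2-Etv2 replicate 1 and 57.9 in replicate 2. The control array was not called, so the fold is a bound of at least 10.49-fold higher for the mean, with a limma adjusted p of 0.284. By array the bound was 26.5-fold for replicate 1 and 4.15-fold for replicate 2. Replicate 1 was again the higher of the pair. Skap2, which lies beside the Hoxa cluster and has 0.07 and 0.09, did not share this pattern. Of the 17 flanking genes 13 were tested, 1 lay at least 2-fold higher on both arrays, 0 lay lower, 0 passed the test, and the median was 0.08. Evx1 and Evx2, homeobox genes at the posterior ends of Hoxa and Hoxd, were called on no array.

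Of 10 homeobox relatives outside the clusters, 6 were called on no array and 3 were tested. The remaining one, Pdx1, a pancreatic regulator, was called on replicate 1 alone and read 3.19, 233 and 3.89. Of these 3, 0 lay 2-fold from control on both arrays and 0 passed the test. Gbx2, an anterior regulator of the brain, lay at 1.42 and 0.72, and Hhex, a regulator of early blood and endothelium, at 1.02 and 0.49.

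**Figure D4:**
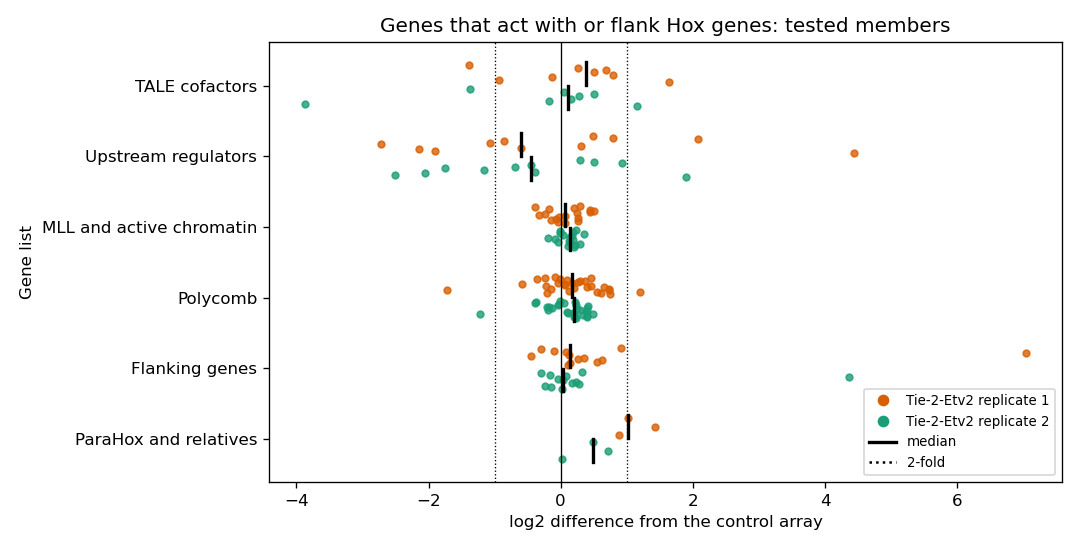
Difference from the control array (log2, horizontal axis) for the tested members of 6 gene lists, with orange points for Tie-2-Etv2 replicate 1 and green for replicate 2. Black ticks are list medians and dotted lines mark 2-fold; the MLL points all lie within 2-fold of control, as do the Polycomb points except Cbx8 on both arrays and Cbx2 on replicate 1, and the point farthest to the right is Skap1.

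Markers of several cell types stood apart between the arrays. Etv2 itself was 4.42 and 3.22 log2 above control on the Tie-2-Etv2 arrays (adjusted p = 0.237 in limma), and the labels do not say whether its probe reads RNA of the transgene, the native gene or both. Of the gating proteins, Cdh5 (VE-cadherin) lay 4.46 and 2.60 log2 above control and Ptprc (CD45) -0.42 and -0.50 from it, and both genes were called on all arrays. In these bulk samples fewer cells of a type and less RNA per cell cannot be told apart.

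The summed level of each marker list is given in multiples of the array's 75th percentile, for the control array, replicate 1 and replicate 2 in that order. Each sum is dominated by its brightest probes and is compared only with itself: on the control array Kdr held 62.0% of the endothelial sum, Cd34 60.2% of the progenitor sum, Csf1r and Cx3cr1 together 72.0% of the macrophage sum, Hbb-y 57.9% of the erythroid sum, Afp 61.8% of the visceral endoderm sum and Col1a2 49.4% of the mesenchyme sum. For 10 endothelial markers it was 2.22, 8.99 and 3.997, with 7 of 10 at least 2-fold higher on both arrays, against 3.91% of all tested genes. Kdr lay only 0.86 and 0.14 log2 above control. Emcn (2.07 and -0.29) and Cldn5 (2.41 and -0.34) lay below control on replicate 2. Replicate 1 gave the highest endothelial sum, and it was also the highest array for Hoxb2, Hoxb4 and Hoxb5. The part of the endothelial share in those Hoxb values was not tested. For 10 progenitor markers the sums were 13.1, 28.1 and 24.1, with 3 higher, 1 lower and Mecom called on no array.

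The macrophage, erythroid, visceral endoderm and mesenchyme lists were highest on the control array, as Hoxa7 was. The sums were 66.3, 5.08 and 16.2 for 10 macrophage markers. Of these 9 were at least 2-fold lower on both arrays, against 6.64% of all tested genes. For 8 erythroid markers the sums were 43.3, 8.28 and 12.0 (5 of 7 tested lower). For 9 visceral endoderm markers they were 34.0, 1.80 and 14.4 (all 9 lower). Mesenchyme, a tissue rich in Hox expression, gave 1.41, 0.187 and 0.127 over 13 markers. Of these 5 of 8 tested were lower, while Pdgfra, Prrx1, Hand1, Hand2 and Tbx4 were called on no array. The other tested members were not lower on both arrays. Twist1, uncalled in control, lay above it (0.99 and 1.39), and Postn (0.55 and -1.45) and Pdgfrb (-0.41 and 0.30) differed in sign between the arrays. Hoxa7, like the macrophage, erythroid and visceral endoderm sums, was lower on replicate 1 than on replicate 2, while the mesenchyme sum was not. The sort was for VE-cadherin and CD45, yet some markers of visceral endoderm and mesenchyme were called on the control array. Afp read 43628 there and Col1a2 read 1438. The part of any of these cell types in the Hoxa7 values was not tested. Of 12 neural tube markers 9 were called on no array, Sox2 and Pax6 among them, with sums of 1.11, 0.190 and 0.365, most of which was Nes.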

How the data were processed

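Per the labels, RNA was labelled with Cy3. Per the file headers, the deposited intensity is the processed signal of Agilent Feature Extraction 10.7.3.1 (10.7 in the submitters' processing notes). It is background-subtracted, a surrogate stands in for very dim spots, and arrays are not scaled to each other. The authors' deposited series table gives log2 values without stating scale or centring. After an offset for each Tie-2-Etv2 array (0.756 and -0.0161), it gave the same array differences as the scanner values to within 0.01 for 100% of 55668 probes, with column medians of 0, 0.136 and 0. It was used as an alternative.

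Of 59305 non-control spots per array, outlier spots (168 to 174 per array) were left out, 0 were saturated, and replicate spots of a probe were averaged on the log2 scale. Between 43.5% and 48.5% of probes were well above background, so the 75th percentile was taken over probes called on all 3 arrays. Where several probes of a gene were tested, the one brightest on average over the control and Tie-2-Etv2 means stood for it. Two-sided tests used limma 3.58.1 (lmFit, eBayes; R 4.3.3), adjusted by Benjamini-Hochberg over all tested probes. The spread came from the Tie-2-Etv2 pair (1 residual degree of freedom, 3.92 with the prior), and the control was assumed to vary like it. The procedure was run on simulated data to check the code, which does not show the power reached with these arrays. An "at least" fold compares the brighter group's mean with the dim group's lowest called signal, or the dim probe's own signal where higher. The number of arrays limits the precision.

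Hox genes are named whether called or not; a few items are counted but not reported here by name or sequence. From each related list, up to 4 members at least 2-fold from control in 1 direction on both arrays were named, or the 2 with the largest smaller difference where there was none. The Cdx genes, Skap2, the Evx genes, HOTAIR, Hoxa11as and single markers were named after their values were seen. Members and lists were chosen with earlier results of these data known. Alternatives covered background correction, scaling, the filter on dim probes, the choice of probe, the deposited table, a floor for dim values and each Tie-2-Etv2 array left out. Probe positions are on build mm9, per the file headers, and no mm9 annotation was used.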

Additional observations from a re-analysis of the deposited data

How the results depend on the processing

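Only 3 arrays on 1 slide limit these results, and most Hox probes were too dim to measure. In every setting with a test, 0 Hox genes passed in limma, although over all genes normexp gave 609 passing and testing dim probes too gave 442. In these 2 settings limma leaned more on the spread shared by all probes. The degrees of freedom with the prior were 26214 for normexp and 21.1 with dim probes, against 3.92. Under normexp, Hoxa9 (0.14) and Hoxc12 (0.22) took the other sign, 0 Hox genes were at least 2-fold lower on both arrays, and 4 genes of the related lists were at least 2-fold apart, against 8. With no filter, 2 Hox genes were lower on both arrays. With probes called on all 3 arrays, the related lists gave 4. The looser detection mark gave 21, 17 and 15 Hox genes against 6, 8 and 7. With 1 Tie-2-Etv2 array left out, 0 to 3 Hox genes were at least 2-fold higher (3 on replicate 1 alone: Hoxb2, Hoxb4 and Hoxb5), the Hox median ran from -0.39 to 0.56, and the related lists gave 10 to 13. Hoxa7 ran from -2.50 to -0.88 over all settings. The deposited table changed no sign of a Hox gene, but it differs from the scanner values by little more than an offset per array. A floor for dim values was chosen after seeing the data. It could not change the 6 tested Hox genes, which were called on all 3 arrays. With this floor, 6 genes of the related lists were left, without Cyp26a1 and Cbx8. No paired analysis was possible because the 1 control sample carries no replicate number.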
